A study of Homo sapiens with 9 samples.

Results

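The genes described here are feedback inhibitors of the ERK kinase pathway and ETS transcription factors of the PEA3 subfamily. They were chosen by symbol, with earlier results of these data known. They are DUSP4, DUSP5, DUSP6, SPRY1, SPRY2, SPRY4, SPRED1, SPRED2, ETV4 and ETV5, which are 10 of the 20812 genes in the table. Growth factor receptors such as ERBB2 (HER2) switch on RAS, which acts through the kinases RAF and MEK to activate ERK. Active ERK raises transcription of its own inhibitors: dual-specificity phosphatases remove phosphate from ERK itself, and Sprouty and SPRED proteins act further upstream, at the level of receptors, RAS and RAF. ETV4 and ETV5 are transcription factors whose transcripts also rise with ERK activity in many cell types, so this group of transcripts is widely read as a measure of ERK output.

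The samples were SKBR3 cells, an established human breast cancer line with an amplified ERBB2 gene. 3 libraries came from cells given PVRL4 siRNA 1, 3 from cells given PVRL4 siRNA 2 and 3 from cells given a non-targeting control siRNA. All 9 were treated with 10 nM siRNA in the same lipid reagent for 48 h. Per the labels' protocols, the PVRL4 siRNAs were bought from Integrated DNA Technologies and the control, an ON-TARGETplus non-targeting siRNA, from Horizon Discovery, so supplier and target cannot be told apart in a comparison with control. PVRL4, now named NECTIN4, encodes a cell adhesion protein. RNA was measured with an Ion AmpliSeq transcriptome panel, which reads 1 short amplicon per gene, and values are RPM, the reads of a gene scaled to the total of its library. Levels are therefore compared between libraries for a gene, never between genes.

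Library totals were 10017130 to 10707777 reads, and 1 read was worth 0.0934 to 0.0998 RPM. PVRL4 was at 5.99, 4.36 and 4.67 RPM in the siRNA 1 libraries, at 3.39, 2.91 and 2.58 RPM in the siRNA 2 libraries, and at 9.93, 7.86 and 11.6 RPM in the control libraries. Its mean was 51.0% of the control mean with siRNA 1 and 30.2% with siRNA 2, and neither group overlapped the control. The decrease passed the threshold with siRNA 2 (limma, adjusted p = 0.00224) and missed it with siRNA 1 (adjusted p = 0.0601, or 0.0132 in a fit that also removed differences between replicate numbers, called the replicate block). With siRNA 1, the call with the block was kept in 6 of 9 fits that left out 1 library. It was lost without control replicate 1 or 3 or siRNA 1 replicate 3 (limma adjusted p up to 0.168). Without the block, edgeR missed it (adjusted p = 0.0551) and DESeq2 called it (adjusted p = 0.0151). The SKBR3 markers ERBB2, GRB7, KRT8, KRT18, KRT19 and EPCAM were present in every library. The leukocyte marker PTPRC was at 0 in all 9 libraries, and the 4 leukocyte markers together reached at most 0.374 RPM. The summed fibroblast markers lay between 3.82 and 7.47 RPM, the endothelial ones between 4.29 and 10.3 RPM and the basal or myoepithelial ones between 2.96 and 3.87 RPM. CDH5 made up most of the endothelial sum: PECAM1 was at 0 in 8 libraries and VWF reached at most 0.668 RPM. COL1A1 made up most of the fibroblast sum, and COL3A1, DCN and LUM reached at most 0.934, 0.191 and 0.194 RPM. In such bulk libraries, fewer cells of a type and less RNA per cell cannot be told apart.

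All comparisons used log2(RPM + 1) in limma over 9 libraries, for the 11158 genes that averaged 1 RPM or more. A gene was called at a two-sided Benjamini-Hochberg adjusted p under 0.05. 8 of the 10 genes passed that filter, and SPRY1 and ETV5 did not. Against control, siRNA 1 gave a higher fitted level for 6 of the 8, of which SPRY4 turned direction in edgeR and DESeq2, and siRNA 2 gave a lower one for all 8. limma called 0 of the 8 with siRNA 1, against 0.851% of genes tested, and 0 with siRNA 2, against 0.681%. Both comparisons use the same control libraries. Between siRNA 2 and siRNA 1 it called 1, SPRED1, against 3.05% of genes.

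Among the genes whose difference between siRNA 2 and siRNA 1 was called in the fit with the replicate block, as it was for 9.33% of all genes tested, 3 have a promoter window in the RefSeq table for GRCh38.p14. The 250 bases upstream of their RefSeq transcription starts are shown here because these genes were lower with siRNA 2 than with siRNA 1 in that fit. For SPRY2, the window shown was selected for holding the longer ETS core CCGGAA, so the presence of that core in it is not a result. The SPRED1 and SPRY4 windows lie inside the spans that GENCODE gives those genes. Each runs 5′ to 3′ on the strand of its gene, and capitals mark the ETS core GGAA, or TTCC where the core lies on the other strand. The windows are chr15:38252586-38252835 (plus strand) for SPRED1, chr5:142324248-142324497 (minus strand) for SPRY4 and chr13:80341127-80341376 (minus strand) for SPRY2.
SPRED1: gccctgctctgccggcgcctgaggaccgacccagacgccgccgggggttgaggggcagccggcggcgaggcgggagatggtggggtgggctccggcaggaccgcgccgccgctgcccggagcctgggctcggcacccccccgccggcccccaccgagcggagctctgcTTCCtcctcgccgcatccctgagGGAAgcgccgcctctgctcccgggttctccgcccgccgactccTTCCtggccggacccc
SPRY4: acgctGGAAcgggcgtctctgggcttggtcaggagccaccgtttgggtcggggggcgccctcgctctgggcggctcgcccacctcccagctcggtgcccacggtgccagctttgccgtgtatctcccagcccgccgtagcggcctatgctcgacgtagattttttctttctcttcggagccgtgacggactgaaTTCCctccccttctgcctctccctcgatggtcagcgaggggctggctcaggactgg
SPRY2: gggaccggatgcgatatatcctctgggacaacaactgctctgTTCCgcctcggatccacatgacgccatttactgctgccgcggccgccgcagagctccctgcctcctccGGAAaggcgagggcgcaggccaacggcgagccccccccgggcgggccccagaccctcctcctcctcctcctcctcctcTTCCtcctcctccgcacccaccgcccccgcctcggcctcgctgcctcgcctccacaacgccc
The GC content was 78.4% for SPRED1, 65.6% for SPRY4 and 70.4% for SPRY2. Of the 10 genes, 6 matched the table (DUSP6, SPRY1, SPRY2, SPRY4, SPRED1 and SPRED2), with 10 windows between them. GGAA, searched on both strands, was in 10 of these 10 windows, against 92.7% of all 35116 windows of 250 bases. The longer core CCGGAA, which contains GGAA, was in 2 of the 10, those of SPRY1 and SPRY2, against 14.5% of all windows. The AP-1 motif TGANTCA was in 0 of the 10, against 6.57%. The octamers bound by the repressor CIC, TGAATGAA and TGAATGGA, were also in 0 of the 10, against 1.4% and 0.832% of all windows.

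DUSP4, DUSP5 and DUSP6 encode phosphatases that inactivate ERK. DUSP4 and DUSP5 act in the nucleus and DUSP6 in the cytoplasm. In GRCh38, the GENCODE annotation places DUSP4 on chromosome 8 (29333064 to 29350668), DUSP5 on chromosome 10 (110497838 to 110511544) and DUSP6 on chromosome 12 (89347232 to 89353271). For DUSP4, replicates 1, 2 and 3 were at 51.3, 91.3 and 61.5 RPM with siRNA 1, at 31.1, 77.2 and 38.7 RPM with siRNA 2, and at 50.8, 99.5 and 57.1 RPM with the control. The replicate 2 library was the highest in each group, and the siRNA 2 library was the lowest of its replicate number in all 3 cases, although the groups overlapped. Means were 68.0 ± 20.8 RPM with siRNA 1, 49.0 ± 24.7 RPM with siRNA 2 and 69.1 ± 26.5 RPM with the control (SD, n = 3 each). The log2 difference between siRNA 2 and control was -0.53 with a SE of 0.30 (limma adjusted p = 0.652), and siRNA 1 and control differed by 0.00 (95% interval -0.65 to 0.65). With the replicate block the SE of the siRNA 2 difference was 0.10, and DUSP4 passed the threshold (limma adjusted p = 0.00741). That call was lost without control replicate 1 or siRNA 2 replicate 1, with a limma adjusted p of up to 0.0663.

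DUSP5 was at 11.8, 14.7 and 9.25 RPM with siRNA 1, at 6.19, 12.5 and 6.96 RPM with siRNA 2, and at 7.35, 15.2 and 9.96 RPM with the control. Replicate 2 was again the highest of each group, and the groups overlapped. The log2 difference from control was -0.31 with siRNA 2 (SE 0.27) and 0.16 with siRNA 1 (SE 0.27), and neither passed the threshold with or without the block. DUSP6 was read only a few times per library. It had 10, 17 and 17 reads with siRNA 1 (0.966, 1.65 and 1.59 RPM), 4, 8 and 4 reads with siRNA 2 (0.399, 0.775 and 0.382 RPM), and 15, 10 and 20 reads with the control (1.43, 0.947 and 1.97 RPM). Every siRNA 2 library lay below every library of the other groups. The log2 difference of siRNA 2 from control was -0.68 (SE 0.24, limma adjusted p = 0.339). edgeR on the reads recovered from the RPM values gave -1.44, since the pseudocount of 1 RPM narrows the difference at such low levels. Neither tool called DUSP6.

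The Sprouty proteins are inhibitors of receptor tyrosine kinase signalling that act upstream of ERK. GENCODE places SPRY1 on chromosome 4 (123396795 to 123403760), SPRY2 on chromosome 13 (80335976 to 80340951) and SPRY4 on chromosome 5 (142310427 to 142326455). SPRY2 was at 6.67, 6.78 and 7.004 RPM with siRNA 1, at 2.10, 5.52 and 4.68 RPM with siRNA 2, and at 4.68, 5.59 and 5.91 RPM with the control. All siRNA 1 libraries lay above all libraries of both other groups, which overlapped each other. The log2 difference from control was 0.29 with siRNA 1 (SE 0.24) and -0.39 with siRNA 2 (SE 0.24), neither called. The difference between siRNA 2 and siRNA 1 was -0.69 (95% interval -1.20 to -0.17, limma adjusted p = 0.166), and it passed with the block (limma adjusted p = 0.0367). edgeR with the block did not call this difference (adjusted p = 0.0668).

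SPRY4 had the widest span of group means of the 8 genes, 0.79 on the log2 scale, wider than that of 97.9% of genes tested. It had 12, 25 and 24 reads with siRNA 1 (1.16, 2.42 and 2.24 RPM), 3, 13 and 6 reads with siRNA 2 (0.299, 1.26 and 0.572 RPM), and 10, 40 and 15 reads with the control (0.954, 3.79 and 1.48 RPM). The siRNA 2 library was the lowest of its replicate number in each case, and replicate 2 the highest of its group. The log2 difference of siRNA 2 was -0.78 from control (SE 0.33, limma adjusted p = 0.464) and -0.79 from siRNA 1 (limma adjusted p = 0.262). With the block these gave limma adjusted p values of 0.0723 and 0.0356. In edgeR the differences were -1.49 and -1.39. SPRY1 had 0, 0 and 2 reads with siRNA 1, 1, 0 and 0 reads with siRNA 2, and 0, 1 and 0 reads with the control. A count of 0 allows up to 3 reads, or 0.280 to 0.299 RPM, so no difference in SPRY1 was detectable at this depth. Such floors cover counting error only, because amplicon reads carry no molecular identifiers.

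**Figure D1:**
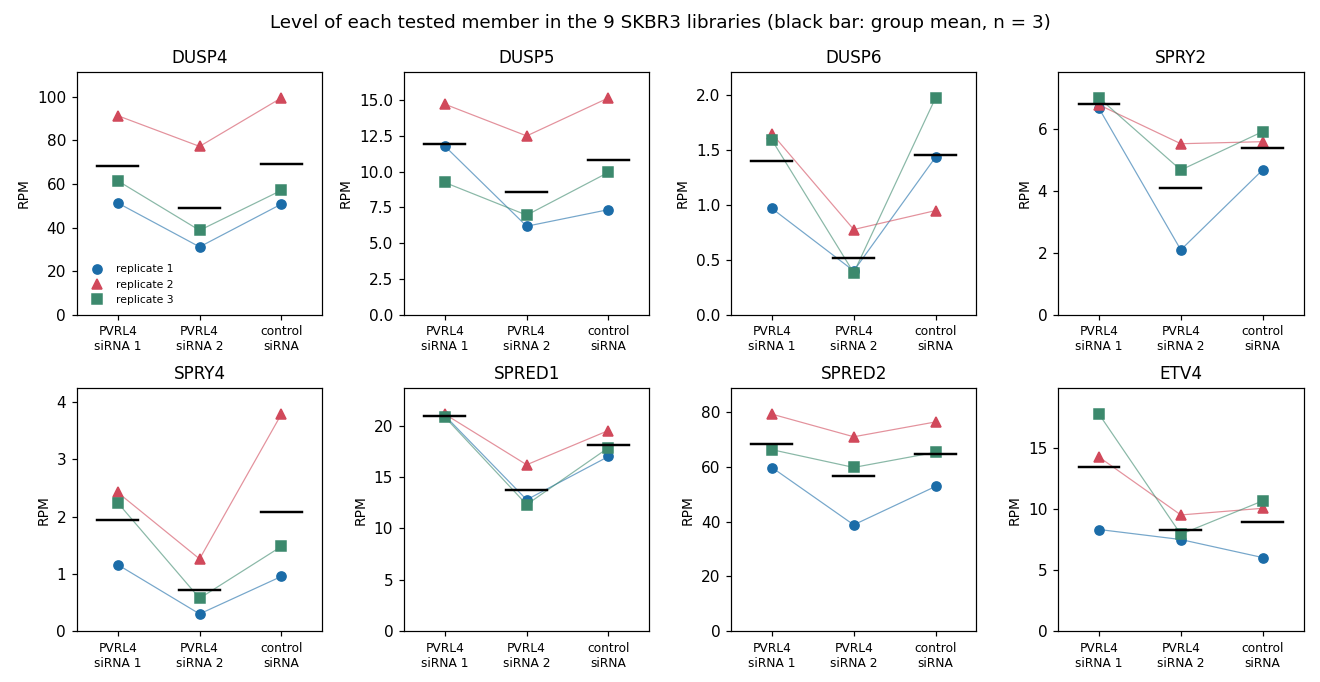
Level in RPM (vertical axes, starting at 0) of the 8 tested genes in each library of the PVRL4 siRNA 1, PVRL4 siRNA 2 and control groups. Lines join libraries of 1 replicate number and black bars are means of 3 libraries; for DUSP4 the replicate 2 libraries sit at 91.3, 77.2 and 99.5 RPM, above all others, while for SPRED1 the siRNA 2 libraries sit at 12.3 to 16.2 RPM, below both other groups.

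SPRED1 and SPRED2 encode Sprouty-related membrane proteins. SPRED1 recruits neurofibromin, a protein that switches RAS off, to the membrane. They lie on chromosome 15 (38252326 to 38357249) and chromosome 2 (65310851 to 65432637) in GRCh38. SPRED1 was at 21.0, 21.1 and 20.8 RPM with siRNA 1, at 12.8, 16.2 and 12.3 RPM with siRNA 2, and at 17.0, 19.5 and 17.8 RPM with the control. The 3 groups did not overlap: siRNA 1 was the highest and siRNA 2 the lowest. Means were 21.0 ± 0.142 RPM with siRNA 1, 13.8 ± 2.12 RPM with siRNA 2 and 18.1 ± 1.29 RPM with the control (SD, n = 3 each). The siRNA 2 mean was lower than that of siRNA 1 by a log2 difference of -0.58, a fold of 0.667 (SE 0.14, 95% interval -0.88 to -0.28), which passed the threshold (limma adjusted p = 0.0358). edgeR and DESeq2 on the recovered reads also called it, with adjusted p values of 0.0399 and 0.0190, and the limma adjusted p with the block was 0.00563. The limma call without the block was kept in 2 of the 9 fits that left out 1 library, those without control replicate 2 or siRNA 2 replicate 2, and was lost without any other (highest adjusted p 0.112). With the block it was kept in 9 of 9 (highest adjusted p 0.04997). Against control, SPRED1 differed by -0.38 with siRNA 2 (SE 0.14, limma adjusted p = 0.351) and by 0.20 with siRNA 1 (SE 0.14), neither called.

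SPRED2 was at 59.8, 79.3 and 66.3 RPM with siRNA 1, at 38.8, 71.0 and 59.8 RPM with siRNA 2, and at 52.9, 76.5 and 65.4 RPM with the control. The groups overlapped, and within each replicate number the order was siRNA 1, control, siRNA 2 from high to low. The log2 difference from control was 0.08 with siRNA 1 (SE 0.19) and -0.22 with siRNA 2 (SE 0.19), and that between siRNA 2 and siRNA 1 was -0.30 (limma adjusted p = 0.508, or 0.0749 with the block).

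ETV4 and ETV5 encode ETS transcription factors of the PEA3 subfamily, and lie on chromosome 17 (43527844 to 43579620) and chromosome 3 (186046308 to 186110318) in GRCh38. ETV4 was at 8.31, 14.2 and 17.7 RPM with siRNA 1, at 7.49, 9.50 and 7.92 RPM with siRNA 2, and at 6.01, 10.0 and 10.6 RPM with the control. The siRNA 1 library was the highest of its replicate number in each case, although the groups overlapped, and replicate 1 was the lowest of each group. The log2 difference of siRNA 1 from control was 0.52 (SE 0.25, 95% interval -0.01 to 1.05, limma adjusted p = 0.862). siRNA 2 differed from control by -0.06 (SE 0.25), and from siRNA 1 by -0.58 (limma adjusted p = 0.286, or 0.0368 with the block). ETV5 had 1, 0 and 0 reads with siRNA 1, 0, 0 and 0 reads with siRNA 2, and 2, 0 and 2 reads with the control. ETV5 was thus under the floor of 3 reads in every library, and no fold can be given.

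**Figure D2:**
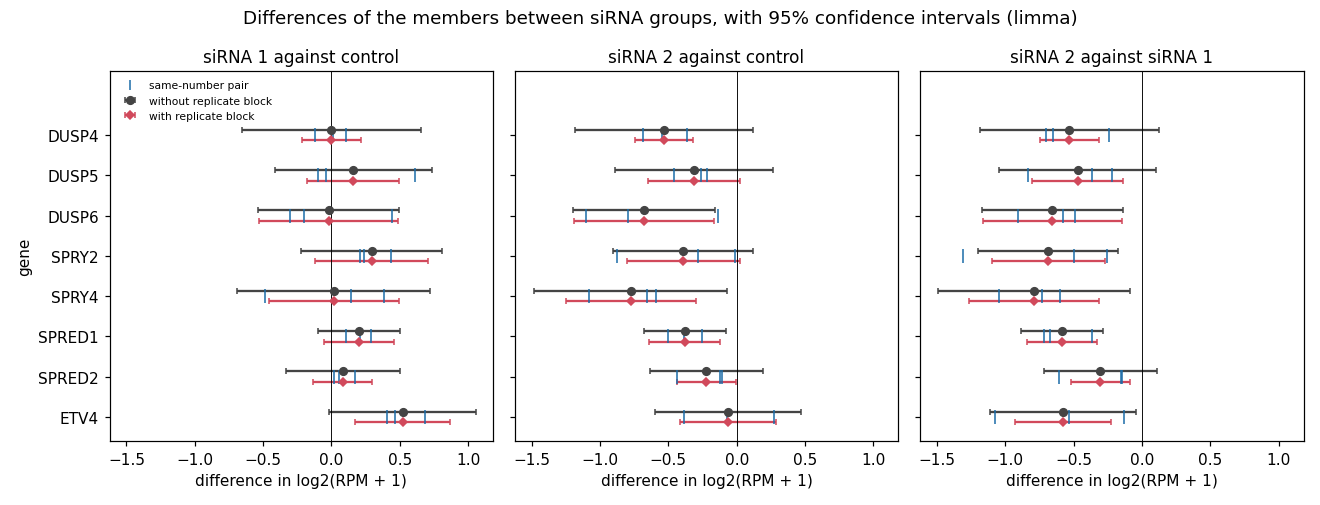
Difference in log2(RPM + 1) (horizontal axis) of the 8 tested genes (vertical axis) for siRNA 1 against control, siRNA 2 against control and siRNA 2 against siRNA 1. Points with bars are limma estimates with 95% intervals without and with the replicate block and ticks are same-number pairs; in the third panel all 8 estimates are negative, from -0.79 to -0.30.

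Set against all genes, the siRNA 1 comparison with control called 0 of the 8 genes, where 0.851% of genes tested were called. At an unadjusted p under 0.05 the count was 0 higher and 0 lower, against 3.26% and 2.78% of genes. limma with the block, edgeR and DESeq2 also called 0, against 1.85%, 0.968% and 1.44% of genes. 6 of the 8 had a positive difference, as did 53.9% of genes. SPRY2, SPRED1, SPRED2 and ETV4 were higher in all 3 same-number pairs, 4 of 8 genes against 18.1% of genes tested. SPRY2 and SPRED1 did not overlap the control, 2 of 8 against 6.4% of genes. The median log2 difference was 0.12, against 0.01 over all genes. The siRNA 2 comparison with control called 0 of the 8, where 0.681% of genes were called. DUSP6, SPRY4 and SPRED1 were lower at an unadjusted p under 0.05, 3 of 8 against 6.93% of genes, and edgeR called 0, against 0.52%. DESeq2 called 0 of the 6 genes to which it gave an adjusted p, against 1.61% of genes, and gave none for DUSP6 and SPRY4. With the block, DUSP4 alone was called, against 3.41% of genes. All genes but ETV4 were lower in all 3 same-number pairs, 7 of 8 against 21.2% of genes, and DUSP6 and SPRED1 did not overlap the control, 2 of 8 against 8.95%. The median log2 difference was -0.39, against -0.02 over all genes, of which 54.6% had a negative difference.

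Between siRNA 2 and siRNA 1, limma called 1 of the 8, SPRED1, where 3.05% of genes were called. With the block it called DUSP4, SPRY2, SPRY4, SPRED1 and ETV4, 5 of 8 against 9.33% of genes. edgeR with the block called 4, the same genes without SPRY2 (adjusted p = 0.0668), against 9.1%. edgeR and DESeq2 without the block called SPRED1 alone, where 3.08% and 4.79% of genes were called, and DESeq2 gave DUSP6 no adjusted p. limma put 5 genes at an unadjusted p under 0.05, all lower, against 10.1% of genes. DUSP4 kept its call with the block in 9 of 9 fits that left out 1 library, and SPRY2, SPRY4 and ETV4 in 4 of 9 each. SPRY2 lost it without control replicate 3 or replicate 1 or 3 of either PVRL4 siRNA, and SPRY4 without siRNA 1 replicate 1 or 3 or any siRNA 2 library. ETV4 lost it without control replicate 3 or replicate 2 or 3 of either PVRL4 siRNA. All 8 genes were lower in all 3 same-number pairs, against 26.2% of genes. DUSP6, SPRY2 and SPRED1 did not overlap between the groups, 3 of 8 against 12.6%. The median log2 difference was -0.58, against -0.04 over all genes, of which 57.1% had a negative difference. This comparison shares its siRNA 2 libraries with the one against control.

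Levels of other transcripts moved with the same groups. The 6 SKBR3 markers summed to 8558 to 9022 RPM with siRNA 2, below 9923 to 10337 RPM with siRNA 1 and 10133 to 10800 RPM with the control. KRT19 and KRT8, keratins of luminal cells, make up most of that sum. KRT19 averaged 5445 ± 117 RPM with siRNA 1, 4977 ± 343 RPM with siRNA 2 and 5878 ± 121 RPM with the control (SD, n = 3 each). KRT8 had a log2 difference of -0.38 from control with siRNA 2 (limma adjusted p = 0.250, or 0.0155 with the block, a call kept in 6 of 9 fits without 1 library and lost without control replicate 2 or 3 or siRNA 2 replicate 2). EPCAM had the opposite sign, 0.06, with 499 ± 43.0 RPM with siRNA 2 and 477 ± 13.3 RPM with the control. A list of 11 interferon-induced genes summed to 712 to 5428 RPM with siRNA 1, against 62.5 to 148 RPM with siRNA 2 and 54.8 to 64.0 RPM with the control. All 11 had a higher fitted level with siRNA 1 than with the control. limma called 10 of them: IFIT1, IFIT2, MX1, ISG15, OAS1, OAS2, IFI6, IFI27, IRF9 and DDX58. IFIT3 rose by a log2 difference of 2.51 and missed the threshold (limma adjusted p = 0.0552, or 0.00556 with the block). limma called all 11 lower with siRNA 2 than with siRNA 1. Their part in the differences of the ERK feedback genes was not tested.

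Levels were also compared between replicate numbers. By an F test across all genes that was chosen after the data were seen, DUSP4, DUSP5, SPRY4, SPRED2 and ETV4 passed the threshold, 5 of 8 against 9.77% of genes. The limma adjusted p was 5.58e-05 for DUSP4, 0.00574 for SPRED2, 0.0141 for DUSP5, 0.0383 for SPRY4 and 0.0400 for ETV4. DUSP6, SPRY2 and SPRED1 did not pass, with 0.766, 0.210 and 0.478. Without 1 library, the limma adjusted p lay between 2.07e-05 and 0.00115 for DUSP4 and between 0.00307 and 0.0334 for SPRED2. DUSP5 lost its call without control or siRNA 2 replicate 2 (up to 0.0974). SPRY4 kept it only without siRNA 1 replicate 2 (otherwise up to 0.174), and ETV4 only without siRNA 2 replicate 1 or 3 (otherwise up to 0.199). In DUSP4, DUSP5, SPRY4, SPRED1 and SPRED2, replicate 2 was the highest library in all 3 groups, 5 of 8 against 9.24% of genes. The labels do not say what a replicate number marks, such as a culture, a day or a sequencing run.

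The share of the variation in log2(RPM + 1) over the 9 libraries differed between the genes. For SPRED1 84.2% lay between siRNA groups and 9.40% between replicate numbers, and for DUSP6 70.0% and 6.06%. SPRY2 followed with 50.4% and 25.4%. The order was opposite for DUSP4, with 24.2% between groups and 72.9% between replicate numbers, for SPRED2, with 19.6% and 70.6%, and for DUSP5, with 23.4% and 64.1%. SPRY4 (45.2% and 46.8%) and ETV4 (40.1% and 44.5%) had similar shares. The medians over all genes tested were 25.2% and 33.7%.

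**Figure D3:**
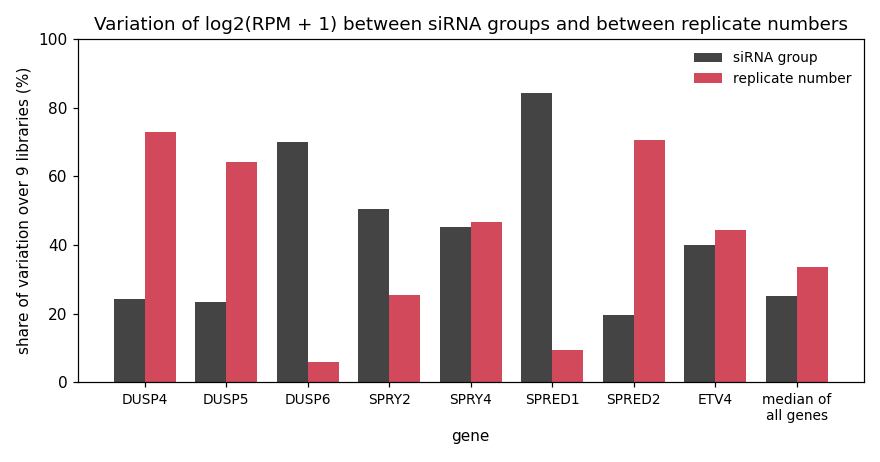
Share of the variation in log2(RPM + 1) over 9 libraries (vertical axis, percent) between siRNA groups and between replicate numbers, for each tested gene and as the median of all genes. SPRED1 and DUSP6 vary mainly between siRNA groups (84.2% and 70.0%), and DUSP4 and SPRED2 mainly between replicate numbers (72.9% and 70.6%).

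The profile most like that of SPRY4, by the mean absolute difference between centred log2(RPM + 1) profiles over 9 libraries, was that of DUSP4, at 0.161 and rank 1 of 9176 genes, those averaging 5 RPM or more and DUSP6. The median difference over those genes was 0.461. PSG4 (0.173), SOD3 (0.178), BHLHE40 (0.182) and NANP (0.188) came next. PSG4 belongs to a family of near-identical genes, and its amplicon could share reads with them. The other genes of the set ranked 52 (DUSP5), 76 (SPRED2), 122 (SPRED1), 143 (SPRY2), 183 (ETV4) and 332 (DUSP6). This distance takes in differences between replicate numbers as well as between siRNA groups. It also depends on the pseudocount of 1 RPM, which narrows the differences of SPRY4 (3 to 40 reads in a library) more than those of DUSP4. In edgeR, the log2 difference of siRNA 2 from control was -1.49 for SPRY4 and -0.46 for DUSP4. Against siRNA 1 it was -1.39 and -0.43. Replicate number held 72.9% of the variation of DUSP4 and 46.8% of that of SPRY4, and both were highest in replicate 2 of each group.

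Further genes of the pathway were read from lists of receptors and ligands, adaptors, kinases, other phosphatases, other inhibitors, other ETS factors and other ERK-responsive transcripts. With siRNA 1 against control, limma called 0 of the 71 tested genes in these 7 lists, against 0.851% of all genes, and edgeR 0, against 0.968%. limma with the block and DESeq2 each called 1, DUSP1, against 1.85% and 1.44% of all genes. DUSP1, an inducible MAP kinase phosphatase, was at 75.3, 40.1 and 33.6 RPM with siRNA 1, 39.3, 43.1 and 25.4 RPM with siRNA 2, and 30.1, 28.3 and 22.7 RPM with the control. Its siRNA 1 libraries lay above the control libraries, with a log2 difference of 0.78 (SE 0.25, limma adjusted p = 0.337). DUSP1 passed with the block (limma adjusted p = 0.00993) and in DESeq2 (adjusted p = 0.0390) but not in edgeR (adjusted p = 0.220). The call with the block was kept in 7 of 9 fits without 1 library and lost without replicate 1 of siRNA 1 or the control (up to 0.204).

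With siRNA 2 against control, limma called 1 of the 71 genes, against 0.681% of all genes: DUSP16, a phosphatase that acts mainly on JNK and p38. With the block it called 4 (5.63% of the 71, against 3.41% of all genes), all lower: DUSP16, GAB1, RPS6KA3 and MKNK2. edgeR called 0, against 0.52% of all genes. DESeq2 called 2, DUSP16 and GAB1, of the 65 to which it gave an adjusted p, against 1.61%. DUSP16 was at 43.3, 33.9 and 39.9 RPM with siRNA 1, at 25.5, 24.1 and 25.2 RPM with siRNA 2, and at 38.7, 37.8 and 36.3 RPM with the control. The siRNA 2 libraries were below all others, and the log2 difference from control was -0.57 (SE 0.12, limma adjusted p = 0.0445), a call that edgeR did not make (adjusted p = 0.0594) and that held in 1 of 9 fits without 1 library, the one without siRNA 1 replicate 1 (otherwise up to 0.184). DESeq2 called it (adjusted p = 0.00906), as did limma with the block (adjusted p = 0.00521), which kept the call in 8 of 9 fits and lost it without control replicate 2 (0.0567). GAB1, an adaptor that links receptors to RAS signalling, was at 36.6, 41.4 and 39.2 RPM with siRNA 2, below 63.2, 54.5 and 57.8 RPM with siRNA 1 and 62.0, 50.5 and 58.5 RPM with the control. Its log2 difference from control was -0.53 (limma adjusted p = 0.0580, or 0.00776 with the block; DESeq2 adjusted p = 0.0177). The call with the block was lost without control replicate 1 or 3 or siRNA 2 replicate 1 (up to 0.0747).

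Between siRNA 2 and siRNA 1, limma called 5 of the 71 genes, all lower with siRNA 2, against 3.05% of all genes. edgeR called 4, against 3.08% of all genes, and DESeq2 8 of the 69 to which it gave an adjusted p, against 4.79%. limma with the block called 14, against 9.33% of all genes. Of these 14, 11 were lower and 3 higher with siRNA 2 (FGFR4, RPS6KA1 and GABPA). The log2 difference was -0.62 for DUSP16 (limma adjusted p = 0.0127), -0.57 for GAB1 (0.0158), -0.60 for RPS6KA3, an ERK-activated kinase (0.0478), -0.53 for IER3 (0.0359) and -0.78 for EGR1 (0.0249). IER3 and EGR1 are early-response transcripts. EGR1 averaged 9.20 ± 0.469 RPM with siRNA 1, 4.97 ± 0.624 RPM with siRNA 2 and 6.85 ± 1.22 RPM with the control (SD, n = 3 each), and siRNA 1 and siRNA 2 did not overlap. The limma call was kept in 7 of 9 fits without 1 library for DUSP16, 6 for GAB1, 4 for EGR1 and 3 each for IER3 and RPS6KA3. All 5 were lost without siRNA 1 replicate 1 or 3, and all but DUSP16 without siRNA 2 replicate 1. EGR1 and IER3 were also lost without siRNA 1 replicate 2 or siRNA 2 replicate 3, RPS6KA3 without siRNA 1 or siRNA 2 replicate 2 or control replicate 3, and IER3 without control replicate 2. edgeR did not call IER3 (adjusted p = 0.0576) or RPS6KA3 (adjusted p = 0.0898). With the block, all 5 were called by limma. FGFR4, a fibroblast growth factor receptor, went the other way: it averaged 35.4 ± 7.05 RPM with siRNA 2, 23.5 ± 2.48 RPM with siRNA 1 and 25.4 ± 2.42 RPM with the control (SD, n = 3 each). Its siRNA 2 libraries lay above all others. The log2 difference between siRNA 2 and siRNA 1 was 0.56 (SE 0.15, limma adjusted p = 0.0632), and it passed in edgeR (adjusted p = 0.0386), in DESeq2 (adjusted p = 0.00704) and in limma with the block (adjusted p = 0.0146). The call with the block was lost without siRNA 1 replicate 1 or 3 or siRNA 2 replicate 1 (up to 0.123).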

How the data were processed

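The authors deposited 1 table of RPM values for 20812 genes and 9 libraries. Per the labels' protocols, libraries were built with an Ion AmpliSeq transcriptome kit, with 100 ng of RNA as input. The submitters' processing notes name hg19 as the build; for the aligner, the counting tool and the amplicon positions, the entry is not given in the sources used here. A transcript sharing an amplicon, such as a close paralog, cannot be told apart from the named gene. Gene positions and promoter windows are from GRCh38 and serve only to describe the genes. Groups and replicate numbers come from the titles. Whether replicates were separate cultures is not in the labels; p-values reflect only how these samples varied, possibly for technical reasons.

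The RPM steps gave whole reads for 100% of values within 0.1 read. limma 3.58.1 (R 4.3.3, trended variance) was fitted to log2(RPM + 1) for 11158 genes averaging 1 RPM or more, with 3 groups sharing 1 estimate of the spread. Differences on this scale understate those of genes near 1 RPM. edgeR 4.0.16 and DESeq2 1.42.0 were run on the recovered reads. limma with and without the block, and edgeR without it, were tested on simulated counts. Those counts held no differences between replicate numbers, so they cannot show how the block handles such differences. Other alternatives were pseudocounts of 0.1 and 5 RPM, no filter, a filter of 5 RPM, median-of-ratios and TMM scaling, the 6 libraries of a comparison alone, the replicate block and leaving out each library.

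Same-number libraries deviated from their group means together: the correlation was 0.252 to 0.417 in 9 same-number pairs and -0.340 to -0.0275 in 18 others. The labels state no pairing, and the source of this shared variation was not tested. The replicate block treats same-number libraries as paired, and the main limma fit does not. The genes described by name in the other pathway lists were taken from those called, or from up to 2 with the smallest p where none was. The nearest profiles are the 5 nearest to that of the tested gene with the widest span of group means. The genes and lists were chosen with earlier results of these data known, as were the tests. The F test of replicate number and the block fits without 1 library were added after seeing the data. Scalings moved the median difference over all genes by under 0.1 on the log2 scale.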

Additional observations from a re-analysis of the deposited data

Results flagged for a closer look

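Several genes differed between the 2 PVRL4 siRNAs, by a direct test of siRNA 2 against siRNA 1 (limma, adjusted over all genes). That test called 3.05% of all genes tested. The adjusted p was 0.0358 for SPRED1, 0.0127 for DUSP16, 0.0158 for GAB1, 0.0249 for EGR1, 0.0359 for IER3 and 0.0478 for RPS6KA3. Each was lower with siRNA 2. In the 9 fits without 1 library, the call was kept in 7 for DUSP16, 6 for GAB1 and 4 for EGR1. It was kept in 3 each for IER3 and RPS6KA3 and in 2 for SPRED1. edgeR did not call IER3 or RPS6KA3.

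SPRY2 and SPRED2 were lower than control in every same-number pair with siRNA 2 and higher in every same-number pair with siRNA 1, and the pairs share the control libraries. SPRED1 had the same pattern, and the share of all genes with it was not computed. Some of these differences were close to none. In log2(RPM + 1), SPRY2 differed by -0.015 in replicate 2 with siRNA 2, and SPRED2 by 0.021 in replicate 3 with siRNA 1. SPRY2 had a log2 difference between siRNA 2 and siRNA 1 of -0.69 (limma adjusted p = 0.166) and SPRED2 of -0.30 (limma adjusted p = 0.508), so neither difference passed the test without the block. With the replicate block the limma adjusted p was 0.0367 for SPRY2, which passed, and 0.0749 for SPRED2. The SPRY2 call with the block was kept in 4 of 9 fits without 1 library. edgeR with the block did not make it (adjusted p = 0.0668). Groups of 3 libraries were not examined for single libraries far from the others.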

How the results depend on the processing

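The count of called genes of the 8 was 0 for siRNA 1 against control under every alternative run. For siRNA 2 against control it was 1 with the replicate block and with edgeR and the block, and 0 to 1 with the block without 1 library. For siRNA 2 against siRNA 1 it was 5 with the block, 4 with edgeR and the block, 0 with no filter and with the 6 libraries alone, 0 to 1 without 1 library, and 2 to 5 with the block without 1 library. For replicate number it was 3 at a pseudocount of 5 RPM, 2 with no filter and 2 to 4 without 1 library.

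Over all genes tested, siRNA 1 against control called 95 genes, against 57 with no filter, 206 with the block, 219 with edgeR and the block, 161 with DESeq2 and 46 to 137 without 1 library. siRNA 2 against control called 76, against 29, 380, 320 and 159, 34 with the 6 libraries alone and 18 to 70 without 1 library. siRNA 2 against siRNA 1 called 340, against 197, 1041, 1015 and 524, 212 with the 6 libraries alone and 153 to 306 without 1 library.

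Of the differences examined, those that turned direction were differences from control that had not been called. The siRNA 1 difference of SPRY4 was -0.012 at a pseudocount of 5 RPM, -0.096 in edgeR, -0.028 in edgeR with the block and -0.093 in DESeq2. That of RPS6KA3 was -0.0040 in edgeR, -0.0042 in edgeR with the block and -0.0086 in DESeq2. Without 1 library, with or without the block, the siRNA 1 differences ranged from -0.23 to 0.29 for DUSP4, -0.065 to 0.41 for DUSP5, -0.27 to 0.13 for DUSP6, -0.26 to 0.39 for SPRY4, -0.055 to 0.21 for SPRED2, -0.031 to 0.14 for DUSP16, -0.044 to 0.10 for GAB1, -0.12 to 0.20 for RPS6KA3, -0.24 to 0.049 for FGFR4 and -0.013 to 0.17 for KRT8. Those of siRNA 2 ranged from -0.29 to 0.14 for ETV4 and from -0.41 to 0.022 for SPRED2. The cause of these changes was not tested. Where a library was left out, its group kept 2 libraries. Depth limits DUSP6, SPRY1, SPRY4 and ETV5, which had at most 40 reads in a library.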
